A study of Mus musculus with 8 samples.

Results

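The cytosolic ribosomal protein genes are described here as the rows of the gene table whose symbol is Rpl or Rps followed by a number, with an optional a, l or x, together with Rplp0, Rplp1, Rplp2 and Rpsa. The rule took 81 of the 25574 listed genes, 49 of the large and 32 of the small subunit, and used no measured value. For testing, the mean FPKM of P or of NP had to exceed 0.1, which 80 of the 81 members passed. Rpl3l, a paralogue of Rpl3 known from striated muscle, was listed at 0 in all 8 libraries and was not tested. FPKM counts fragments per kilobase of gene model, scaled to the size of the library. Levels of different members set side by side on it thus also depend on the lengths of their gene models.

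Each cytosolic ribosome joins a small subunit, which reads the mRNA, to a large subunit, which forms the peptide bond and lets the new protein leave through an exit tunnel. In most cells the mRNAs of its proteins are abundant and share a short stretch of pyrimidines at the cap, the 5′ terminal oligopyrimidine or TOP motif. TOP mRNAs are known to be held back from ribosomes as a class by the binding protein Larp1 when mTOR signalling is low. A full-grown oocyte no longer transcribes and resumes meiosis on stored mRNA, so the place of an mRNA in a sucrose gradient can reflect its use or storage.

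The 2 datasets were the polysomal (P) and the non-polysomal (NP) pools of sucrose gradient fractions, with 4 libraries each. They were made to ask which mRNAs sit on polysomes in mouse oocytes at nuclear envelope breakdown (NEBD). NP held the fractions of ribosomal subunits and single ribosomes as well as stored mRNA, and the top fraction entered neither pool. The study could not exclude stored particles that sediment with polysomes, so NP need not be storage alone nor P translation alone. Per the labels, GV oocytes came from CD1 mice, 8 weeks of age and 46 h after 5 IU of pregnant mare serum gonadotropin. They were collected with 100 µM IBMX, which holds the meiotic arrest, then freed of it for 180 min, and 200 NEBD-stage oocytes per profile received cycloheximide at 0.1 mg/ml for 10 min to fix ribosomes on mRNA. All 8 libraries share these treatments, and no untreated oocytes or total lysates are compared here. RNA was depleted of rRNA, primed with random and oligo(dT) primers and amplified, and FPKM gives shares within a library, so less of an mRNA in a pool and more of all other RNA there cannot be told apart.

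The 10 oocyte markers, among them Zp3, Gdf9 and Mos, were above 1 FPKM in all 8 libraries. Of the 12 cumulus and granulosa markers, 3 were at 0 in every library and 8 never reached 1 FPKM, and their sum was 15.3 to 94.4 FPKM in NP and 2.38 to 64.0 FPKM in P. The part of somatic RNA in the values below was not tested. The size to which each library had been scaled, recovered from the steps between low FPKM values, was 1299377 to 7594637 reads in NP and 2677946 to 4699328 reads in P, so a single read over 1 kb was worth between 0.132 and 0.770 FPKM. Reads of amplified cDNA are not independent molecules, and such steps cover counting error only. The median fold change of all 14292 tested genes was −0.39 on the log2(FPKM + 1) scale, so values of members are also given relative to it. The genes listed above 0 numbered 11703 to 13753 in the NP libraries and 9139 to 11339 in the P libraries. The part of this difference in that median was not tested.

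The start of the TOP motif can be read from the annotated transcription start. In the RefSeq windows of GRCm38.p6, which held 60 of the members, 13 members (21.67%) had a C at the annotated start base with at least 4 more pyrimidines (C or T) behind it, against 3.008% of all 27025 genes with a window. Counting any run of at least 5 pyrimidines led by C that began within 10 bases of that start, 38 members (63.33%) had one, against 34.4% of all genes. Only the gene's own strand was searched, and an annotated start need not be the start used in the oocyte. The windows below belong to members described further on, so that their starts can be read beside their values. They are not simply the members with the largest differences. Rps27l (log2 fold change −1.21) is shown, while Rpl26 (−2.17) and Rpl13 (−2.01), whose windows held no run, are not. Each window has 30 bases, of which 15 lie before the annotated start, written 5′ to 3′. The longest such run is in capitals, and that of Rps12, 11 bases long, is cut by the end of the window.

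Rpl12 (chr2:32961697-32961726, plus strand): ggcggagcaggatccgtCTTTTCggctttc
Rpl19 (chr11:98026909-98026938, plus strand): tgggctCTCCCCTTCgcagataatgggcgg
Rpl7a (chr2:26910792-26910821, plus strand): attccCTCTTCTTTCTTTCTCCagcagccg
Rpl35 (chr2:39005117-39005146, minus strand): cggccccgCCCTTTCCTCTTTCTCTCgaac
Rps9 (chr7:3704026-3704055, plus strand): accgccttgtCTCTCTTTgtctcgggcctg
Rps12 (chr10:23787195-23787224, minus strand): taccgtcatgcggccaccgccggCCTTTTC
Rps15 (chr10:80292416-80292445, plus strand): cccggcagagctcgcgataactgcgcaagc
Rps27l (chr9:66946071-66946100, plus strand): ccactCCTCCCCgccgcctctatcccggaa
Rps27 (chr3:90213634-90213663, minus strand): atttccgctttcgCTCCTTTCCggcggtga
Rpl5 (chr5:107900513-107900542, plus strand): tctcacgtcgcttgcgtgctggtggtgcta

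Of these windows, those of Rpl35 and Rps27 met the stricter definition, and those of Rpl5 and Rps15 held no run. Rpl35 and Rps15 were among the members furthest to the NP side, and Rps27 and Rpl5 were the furthest to the P side, so each kind of start was found on both sides. The median log2 fold change, P minus NP, was −0.79 for the 37 tested members with a run and −0.54 for the 22 without one. By the stricter definition it was −0.46 for 13 members with the motif and −0.82 for 46 without it.

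Ribosomal protein mRNAs were among the more abundant transcripts of both pools. The median member stood at percentiles 84.6 to 90.8 of all listed genes in the NP libraries and 83.4 to 90.2 in the P libraries. Together the members held 2.71, 2.06, 1.23 and 5.59% of the summed FPKM in NP1 to NP4, and 1.59, 3.45, 2.49 and 2.08% in P1 to P4. The datasets overlapped in this share, which averaged 2.90% ± 1.89 for NP against 2.40% ± 0.789 for P (SD, n = 4 each).

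The members differed widely in level. Means over the 8 libraries ran from 0.272 FPKM to 3718 FPKM with a median of 40.2 FPKM, and 63 members exceeded 10, 20 exceeded 100 and 2 exceeded 1000 FPKM. Rps27, a zinc-finger protein of the small subunit, was the highest member in 6 of 8 libraries, and Rpl36, a protein of the large subunit, in NP2 and NP4. In P3 Rps27 alone made up 67.8% of the members' summed FPKM.

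At the other end, Rpl9, Rpl21 and Rpl29 stayed near 0 in most libraries. Rpl9 was listed above 0 only in NP3 (0.0892), NP4 (2.14) and P2 (0.506 FPKM). Rpl21 was above 0 in NP3 (0.202), NP4 (0.349) and P1 (1.63 FPKM). Both encode proteins of the large subunit that every ribosome carries, and for both most of the transcript has matches elsewhere in the genome, 87.6% of Rpl9 and 58.8% of Rpl21, as described further on. Their values are thus levels of reads assigned to the gene and were not tested as absence of the mRNA.

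**Figure D1:**
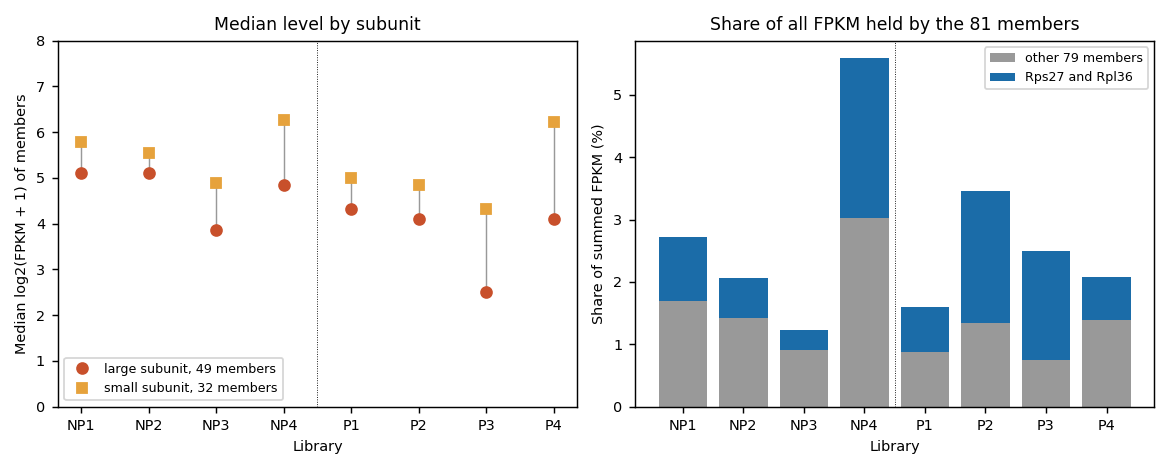
Left, the median log2(FPKM + 1) of the 49 large (circles) and 32 small (squares) subunit members in each library, joined by a line within the library. Right, the percentage of a library's summed FPKM held by the 81 members, with Rps27 and Rpl36 in blue; NP4 is highest at 5.59% and NP3 lowest at 1.23%, and the small subunit median lies above the large one in all 8 libraries.

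In every library the small subunit median was the higher of the pair. The large minus small difference in median log2(FPKM + 1) was −0.66, −0.45, −1.01 and −1.42 in NP1 to NP4 and −0.66, −0.74, −1.80 and −2.12 in P1 to P4. The values of P1 and P2 lay within the NP range, while those of P3 and P4 lay below it. Over all 8 libraries the median member mean was 27.9 FPKM for the large and 58.5 FPKM for the small subunit.

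Within each dataset the members kept much of their order. Spearman correlations of the 81 levels between libraries averaged 0.855 for pairs of NP libraries, 0.70 for pairs of P libraries and 0.753 across datasets, all sharing gene models and copies. Replicate spread was wider in P: the median SD of log2(FPKM + 1) was 0.848 in NP and 1.09 in P, and P was the wider dataset for 51 of 80 members (63.75%), against 57.93% of all tested genes. NP3 held the lowest NP value of 54 of the 80 members and P3 the lowest P value of 37. For 11 members 1 library supplied over 50% of the total of its 8 values, and this was P4 for 5 of them (Rps29, Rps3, Rps24, Rps28 and Rpl37a).

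Comparing P with NP gene by gene, no ribosomal protein gene was called. With limma on log2(FPKM + 1) and Benjamini-Hochberg adjustment over all 14292 genes, 0 of 80 members passed an adjusted p of 0.1, where 0.021% of all genes did, and the lowest adjusted p of a member was 0.376. At an unadjusted p below 0.05, 15 members (18.75%) were higher in NP, against 9.47% of all genes, and 2 members (2.5%), Rpl5 and Rps27, were higher in P, against 0.476%. After scaling each library to one median FPKM, 1 member was higher in NP, against 2.73% of all genes, and 6 were higher in P, against 7.0%. With voom on the recovered reads 7 were higher in NP, against 11.8%. The other tools run called 1 member (limma without a trend in the variance) and 0 members (voom on the recovered reads). Over all genes they called 20 of 14292 and 61 of 13283.

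By sign alone, 63 of the 80 members had a log2 fold change below 0, that is, towards NP, where 71.4% of all genes did. After scaling each library to one median FPKM only 27 did, for which the share of all genes was not computed. The median of all genes was then 0.21, and 34 of the 80 members lay below it. The median over the members was −0.76 as deposited and 0.35 after that scaling, and relative to the median of all genes it was −0.37 and 0.14, and −0.08 with voom. With quantile normalization it stayed towards NP, at −0.24, or −0.23 relative to all genes, so its sign depended on the scaling chosen. Means differed by more than 2-fold towards NP for 34 members (40.6% of all genes did) and towards P for 10 (16.9%). A complete separation of the 4 NP from the 4 P libraries was seen for 6 members towards NP, 7.5% against 5.92% of all genes, and for 1 towards P, 1.25% against 0.357%. For a single gene, complete separation of 4 against 4 gives the smallest p an exact 2-sided permutation test can reach, 0.02857.

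**Figure D2:**
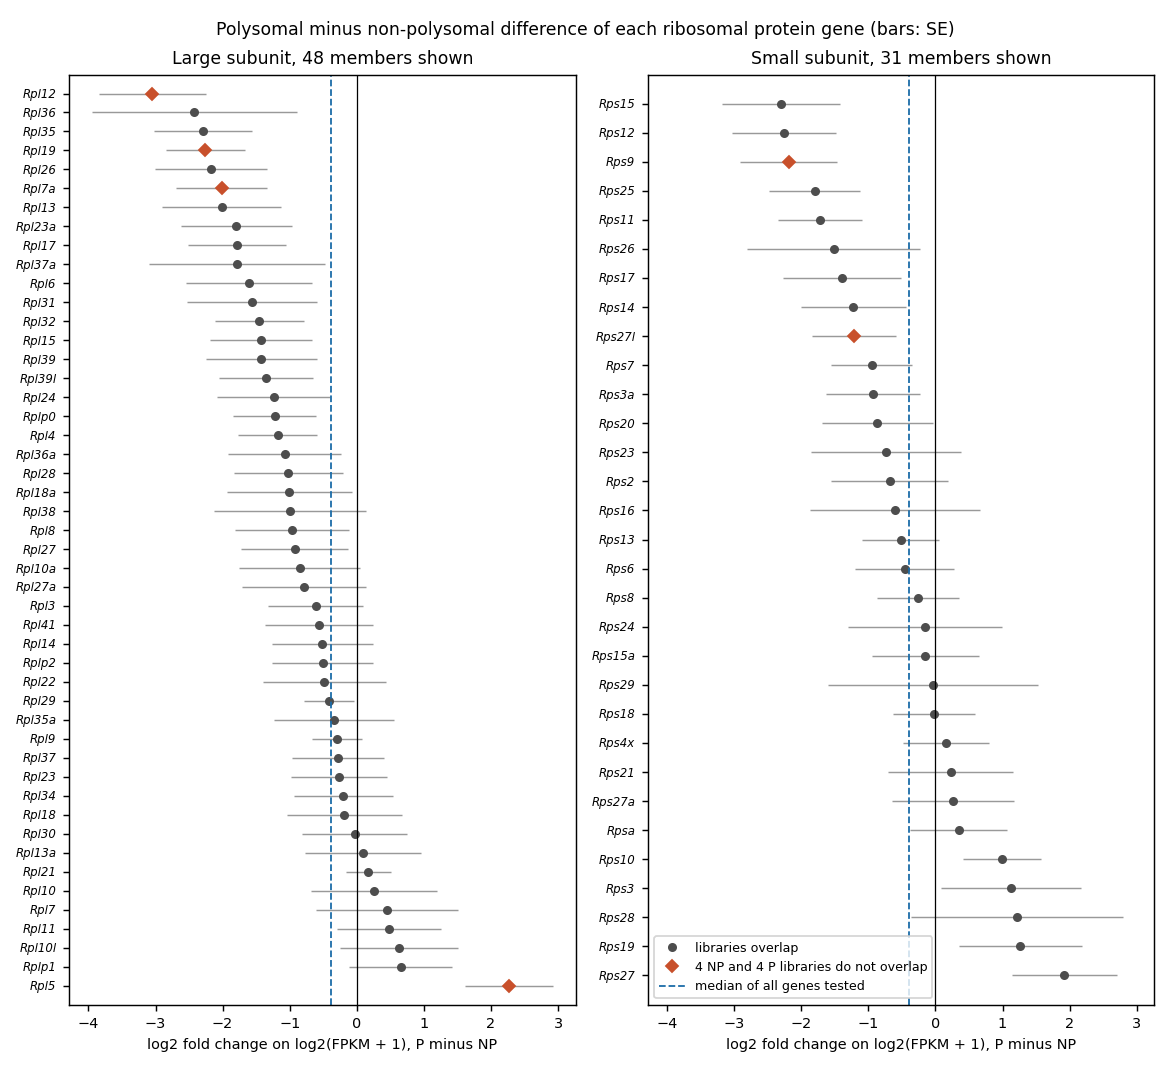
Log2 fold change, P minus NP on log2(FPKM + 1), of 48 large and 31 small subunit members, with bars for the SE; diamonds are the 6 members shown whose libraries do not overlap and the dashed line is the median of all genes, −0.39. Most members lie left of 0, from −3.05 (Rpl12) to 2.27 (Rpl5), and most bars are wide beside the distance from the dashed line.

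Rpl12 had the largest difference towards NP. With the phosphoproteins of the stalk it forms the site where elongation factors engage the large subunit, and its gene lies at chr2:32961559-32964496 on the plus strand of GRCm38. Its level was 12.5, 10.6, 11.7 and 14.4 FPKM in NP1 to NP4 and 1.06, 1.07, 0.517 and 0 FPKM in P1 to P4. The NP libraries were tightly grouped and all above every P library, 12.3 ± 1.58 against 0.663 ± 0.512 FPKM (mean ± SD, n = 4). The log2 fold change was −3.05 (SE 0.80, limma adjusted p = 0.376). The P values rested on 13, 9, 6 and 0 recovered reads.

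Rpl19 (chr11:98026710-98030492, plus strand), a large subunit protein that reaches into a bridge to the small subunit, had 180, 283, 84.7 and 136 FPKM in NP and 22.7, 53.1, 26.2 and 31.8 FPKM in P. The lowest NP value lay above the highest P value. The log2 fold change was −2.26 (SE 0.59, limma adjusted p = 0.376), or −0.94 after scaling to one median, and 94.0% of its transcript also matched other places in the genome.

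Rpl7a (chr2:26910764-26913318, plus strand), an RNA-binding protein on the surface of the large subunit, had 82.1, 127, 41.9 and 35.6 FPKM in NP and 35.1, 9.81, 9.98 and 13.6 FPKM in P. Its datasets were separated by the small gap between NP4 and P1. The log2 fold change was −2.01 (SE 0.68, limma adjusted p = 0.416), or −0.73 after scaling to one median.

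In the small subunit, Rps9 (chr7:3703993-3706901, plus strand), which with Rps2 and Rps3 lines the entry of the mRNA channel, had 85.1, 36.6, 15.6 and 75.9 FPKM in NP and 9.94, 9.39, 4.36 and 14.6 FPKM in P. NP3 and P4 came within 1 FPKM of each other. The log2 fold change was −2.19 (SE 0.73, limma adjusted p = 0.412), or −0.94 after that scaling.

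Rps27l (chr9:66946086-66949516, plus strand), the paralogue of Rps27, had 20.0, 31.1, 31.3 and 49.1 FPKM in NP and 14.9, 12.2, 13.5 and 11.4 FPKM in P. Its P libraries lay close together, and the log2 fold change was −1.21 (SE 0.62, limma adjusted p = 0.528). Scaling each library to one median moved it to 0.064, so its direction turned.

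Rpl5 (chr5:107900502-107909005, plus strand) was the separated member on the P side. Together with Rpl11 and the 5S rRNA it forms the particle that is built into the large subunit and that can bind Mdm2. Its level was 20.5, 23.4, 13.5 and 14.5 FPKM in NP and 157, 123, 30.8 and 101.4 FPKM in P. The lowest P library exceeded the highest NP library, at a log2 fold change of 2.27 (SE 0.65, limma adjusted p = 0.394), and its partner Rpl11 had a log2 fold change of 0.48 (SE 0.78, limma adjusted p = 0.796). Rpl5 stayed between 2.0 and 2.77 when any single library was left out, and was 3.57 after scaling to one median.

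Rps27 (chr3:90212725-90213615, minus strand), the most abundant member, had 5631, 1781, 1096 and 268 FPKM in NP and 4457, 6928, 6591 and 2993 FPKM in P. NP1 lay among the P libraries and the other NP libraries lay below them all. The log2 fold change was 1.92 (SE 0.79, limma adjusted p = 0.456), or 3.26 after scaling to one median. Its values were whole multiples of a read at a model length of 255 bp, where the merged exons of the annotation span 1043 bp, and 99.1% of its transcript matched elsewhere, with 11 near full-length copies. Its paralogue Rps27l, with no such match, lay on the opposite side.

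**Figure D3:**
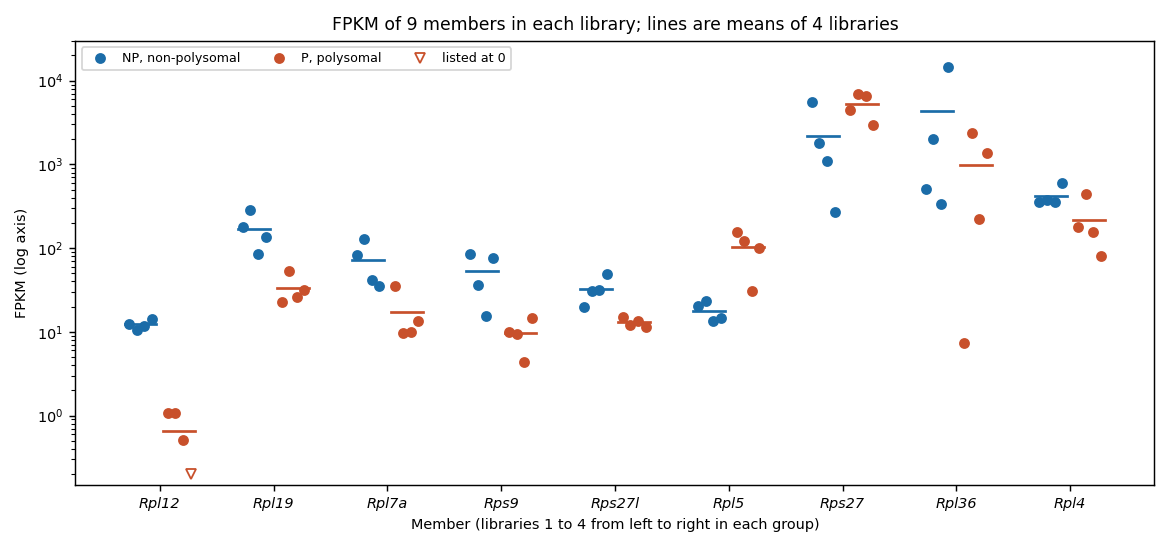
FPKM, on a log axis, of 9 members in each of the 4 NP (blue) and 4 P (orange) libraries, with lines for the means. Rpl12, Rpl19, Rpl7a, Rps9 and Rps27l are separated towards NP and Rpl5 towards P, while Rps27, Rpl36 and Rpl4 overlap; the open triangle is Rpl12 in P4, listed at 0.

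The exit tunnel and its rim are formed by members listed together here. Rpl4, Rpl17 and Rpl39 line the tunnel and Rpl19, Rpl22, Rpl23a, Rpl26, Rpl31 and Rpl35 sit at or near its rim, where targeting factors dock. All 9 had a log2 fold change below 0 as deposited, where 71.4% of all genes did, with a median of −1.79. An unadjusted p below 0.05 towards NP was found for 5 of them and for 9.47% of all genes. After scaling to one median their median was −0.47, where that of all genes was 0.21, and 8 of the 9 lay below it. None of the 9 passed the adjusted threshold of limma.

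Rpl35, the dock of the signal recognition particle together with Rpl23a, had 69.2, 62.0, 41.8 and 95.5 FPKM in NP and 15.4, 6.53, 4.71 and 43.9 FPKM in P. Only P4 reached the NP range, and the log2 fold change was −2.29 (SE 0.73, limma adjusted p = 0.405), or −1.02 after scaling to one median. Rpl26 had 45.1, 31.98, 6.76 and 21.7 FPKM in NP and 9.58, 6.26, 2.03 and 1.81 FPKM in P, with NP3 inside the P range. Rpl17 had 167, 239, 127 and 135 FPKM in NP and 236, 27.0, 29.3 and 23.6 FPKM in P, so P1 lay among the NP libraries and the other P libraries below them all.

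Rpl4, whose long arm narrows the tunnel, had 351, 371, 352 and 596 FPKM in NP and 180, 444, 156 and 81.4 FPKM in P. The overlap came from P2, and the log2 fold change of −1.18 (SE 0.59, limma adjusted p = 0.524) turned to 0.15 after scaling to one median. Rpl22, which binds RNA outside the ribosome as well, was the weakest of the 9 with −0.48 (SE 0.91).

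The stalk proteins had log2 fold changes of both signs as deposited, and differences between them were not tested. Rplp0, the base of the stalk, had 914, 487, 183 and 429 FPKM in NP and 239, 321, 157 and 95.7 FPKM in P, a log2 fold change of −1.23 (SE 0.62, limma adjusted p = 0.526). For Rplp1 the means were 720 ± 875 FPKM for NP and 734 ± 387 FPKM for P (SD, n = 4), with 0.66 (SE 0.77), and Rplp2 averaged 15.2 ± 4.50 and 12 ± 8.31 FPKM (SD, n = 4), with −0.51 (SE 0.75). After scaling to one median the values of Rplp0, Rplp1 and Rplp2 were 0.11, 1.99 and 0.74. Rplp1 and Rplp2, which pair in the stalk, thus differed in mean FPKM by more than an order of magnitude in both datasets. Part of this gap is the model length, 495 bp for Rplp1 and 2072 bp for Rplp2, where their transcripts have 499 and 421 bases. Recovered reads in NP1 to NP4 were 700, 192, 431 and 7585 for Rplp1 and 115, 46, 127 and 279 for Rplp2. In P1 to P4 they were 1218, 1163, 888 and 1694 against 47, 112, 48 and 118. Of the Rplp1 transcript 99.4% and of the Rplp2 transcript 92.9% matched elsewhere.

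Rps3 and Rps28, at the mRNA channel of the small subunit, lay above 0 through P4. Rps3, at the entry of the channel, had 16.2, 24.7, 5.58 and 26.5 FPKM in NP and 30.9, 6.40, 18.5 and 393 FPKM in P, and its log2 fold change of 1.12 became −0.016 without P4. Rps28, at the exit, had 0, 1.58, 2.63 and 76.0 FPKM in NP and 19.3, 3.84, 0 and 210 FPKM in P, and went from 1.21 to −0.17 without P4. After scaling to one median they stood at 2.38 and 2.04.

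Rps15 and Rps23 stand at the decoding centre. Rps15 had 1120, 514, 390 and 4533 FPKM in NP and 112, 237, 69.6 and 915 FPKM in P. The fourth library was the highest of each dataset, and the log2 fold change was −2.30 (SE 0.88, limma adjusted p = 0.433), or −0.96 after scaling to one median. Rps23 had −0.74 (SE 1.12) and was listed at 0 in P1.

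Rps12, on the head of the small subunit, had 638, 530, 195 and 2501 FPKM in NP and 246, 107, 48.7 and 238 FPKM in P, a log2 fold change of −2.26 (SE 0.77, limma adjusted p = 0.416), or −0.93 after scaling to one median. Only NP3 fell within the P range. Rpl36 had 511, 1985, 336 and 14520 FPKM in NP and 7.37, 2383, 222 and 1361 FPKM in P, which spread across more than 3 orders of magnitude. NP4 held 68.1% of its FPKM over the 8 libraries, its transcript matched elsewhere over 100% of its length, and its log2 fold change of −2.42 had an SE of 1.52 (limma adjusted p = 0.595) and was −1.08 after that scaling.

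The remaining abundant members showed smaller differences. Rps14, on the platform of the small subunit, averaged 686 ± 531 FPKM in NP and 270 ± 158 FPKM in P (SD, n = 4), a log2 fold change of −1.22 (SE 0.78) that became 0.11 after scaling to one median. Rpl27 averaged 602 ± 268 and 423 ± 301 FPKM (SD, n = 4), with −0.93 (SE 0.79). Rps4x, the X-linked form of Rps4, averaged 390 ± 216 and 468 ± 353 FPKM (SD, n = 4), with 0.15 (SE 0.64). Rps19, mutated in Diamond-Blackfan anaemia, had 93.1, 39.8, 29.4 and 8.46 FPKM in NP and 99.3, 159, 185 and 11.3 FPKM in P, with 1.26 (SE 0.92). Scaling to one median gave 0.41 for Rpl27, 1.49 for Rps4x and 2.56 for Rps19.

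Rpl39l and Rpl10l, paralogues known from the male germ line, were both read in the oocyte pools. Rpl39l averaged 122 ± 62.3 FPKM in NP and 48.4 ± 32.4 FPKM in P (SD, n = 4), where Rpl39 itself had 21.1 and 7.38 FPKM. By the criteria given further on, the Rpl39l transcript had no copy in the genome, while 58.7% of the Rpl39 transcript matched elsewhere. Their model lengths were 831 and 1434 bp, and which of the 2 mRNAs was the more abundant was not tested. Rpl10l averaged 1.84 ± 2.02 and 3.6 ± 3.07 FPKM (SD, n = 4), far below Rpl10 at 46.3 and 87.7 FPKM. Their log2 fold changes were −1.36 (SE 0.70) and 0.63 (SE 0.88), or −0.040 and 1.27 after scaling to one median. Rps6, the S6 kinase target, had −0.46 (SE 0.74), Rpsa, also known as the laminin receptor precursor, 0.34 (SE 0.72) and Rps27a, a fusion with ubiquitin, 0.26 (SE 0.91), which became 0.77, 1.66 and 1.34 after that scaling.

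The large subunit had the lower median log2 fold change, −0.95 over 48 members against −0.56 over 32, a difference of −0.38. Below 0 lay 40 large (83.3%) and 23 small members (71.9%), against 71.4% of all genes, and towards P lay 8 and 9. Below −2 lay 7 large and 3 small members, where between 4 and 6% of all genes did. At an unadjusted p below 0.05, 9 large and 6 small members were higher in NP, 18.75% of each subunit, against 9.47% of all genes. The difference in medians rested on 1 library, since without P4 it was 0.17. Over the 22 members with less than 50% of the transcript matched elsewhere it was 0.43, and with voom on the recovered reads −0.05.

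**Figure D4:**
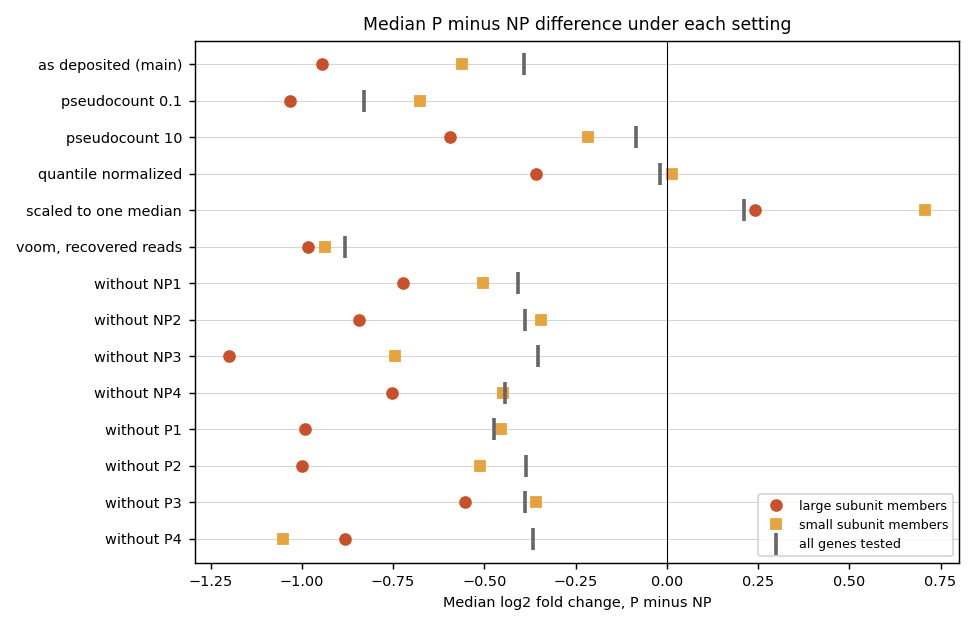
Median log2 fold change, P minus NP, of large subunit members (circles), small subunit members (squares) and all genes tested (bars) for the values as deposited, other pseudocounts and scalings, and with each library left out. The medians of the large and small subunit go from −0.95 and −0.56 as deposited to 0.24 and 0.71 after scaling to one median, where that of all genes goes from −0.39 to 0.21, and the order of the subunits turns without P4.

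Ribosomal protein genes have many processed copies, and the sources used here do not give how reads with several matches were assigned. Of the 80 tested members, 45 had at least 1 near full-length copy (80% of the transcript at 90% identity) in GRCm38, up to 74 for Rpl7a. For 58 members, stretches of at least 50 bases at 98% identity elsewhere covered 50% or more of the transcript. The median log2 fold change was −0.65 for these and −0.91 for the 22 others, and of the 15 members with an unadjusted p below 0.05 towards NP, 9 were among the 58. Over the 80 members the Spearman correlation of log2 fold change with the covered share was 0.011, and with the model length 0.33. Mean level and model length correlated at −0.45. These are descriptions across genes of the same 8 libraries.

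Reads of pseudogenes were also listed apart. Of 60 rows named as pseudogenes of members, 34 were at 0 in all libraries, 16 exceeded 1 FPKM and 7 exceeded 10 FPKM in at least 1 library. Another gene overlapped 18 of the members, on the same strand for 3 (Rpl13a, Rpl13 and Rpl19). The sources used here do not give whether counting used strand, so reads of a member and of an overlapping gene cannot be told apart. The overlapping genes of Rpl12 and Rpl5, Lrsam1 and Fam69a, averaged below 5 FPKM in both datasets.

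Some ribosomal proteins and close paralogues have symbols that the rule does not take. Fau, a fusion of a ubiquitin-like protein with Rps30, had 335, 357, 203 and 267 FPKM in NP and 60.1, 152, 90.5 and 162 FPKM in P. Its libraries did not overlap, at a log2 fold change of −1.39 (SE 0.54, limma adjusted p = 0.440). Gnb2l1, which encodes the scaffold Rack1, had −1.30 (SE 0.86), Rpl36al −1.31 (SE 0.79), Rpl22l1 −1.28 (SE 1.28) and Rpl7l1 0.10 (SE 0.59).

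Other translation gene groups put the members in context. The 76 mitochondrial ribosomal proteins, which work in a separate ribosome, had a median of −1.18, with 15 (19.7%) higher in NP at an unadjusted p below 0.05, against 9.47% of all genes, and 0 higher in P, against 0.476%. None was called by limma, and after scaling to one median their median was −0.10, where that of all genes was 0.21. Among them Mrpl14 averaged 133 ± 139 FPKM in NP and 12.4 ± 3.73 FPKM in P (SD, n = 4), a log2 fold change of −2.86 (SE 0.72, limma adjusted p = 0.376). Mrpl45 (−3.23) and Mrpl23 (−3.14) lay lower. The 36 proteasome subunits had a median of −0.29, with 2 (5.56%) higher in NP and 0 in P at that unadjusted p. It was 0.10 above the median of all genes as deposited, 0.70 above it after scaling to one median and 0.76 above it with voom. In the distribution plot, drawn from the values as deposited, the large subunit median lies between those of these lists and the small subunit median nearer to that of all genes. Higher up the curves this order was not kept. At 92% of genes the small subunit members stood at 1.17, all genes at 0.70 and the large subunit members at 0.45.

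**Figure D5:**
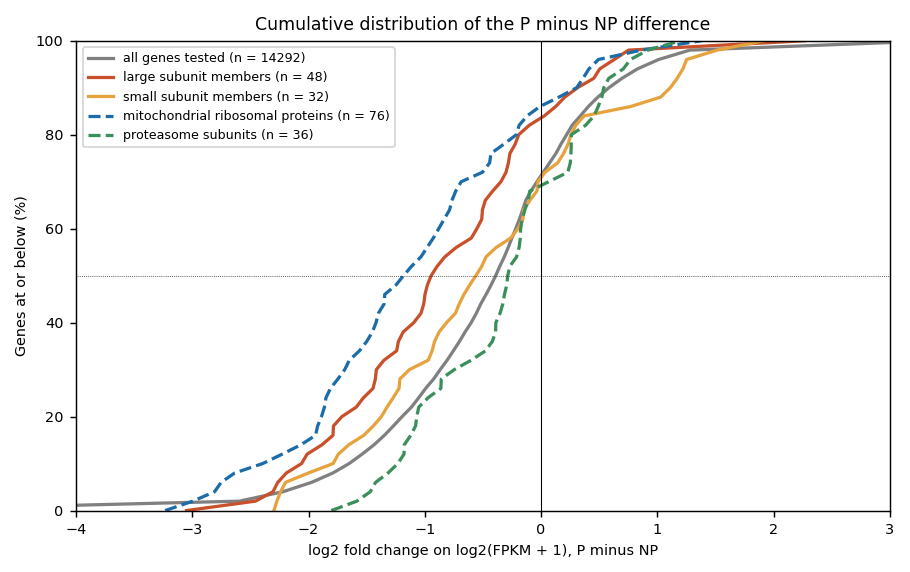
Cumulative percentage of genes at or below each log2 fold change, P minus NP, for large and small subunit members, mitochondrial ribosomal proteins, proteasome subunits and all genes tested. The curves cross 50% at −0.95, −0.56, −1.18, −0.29 and −0.39.

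Other mRNAs known to carry a TOP motif, mainly elongation and initiation factors, had a median of −1.14 over 19 genes as deposited and 0.12 after scaling to one median, a difference from the median of all genes of −0.74 and −0.09. At an unadjusted p below 0.05, 5 (26.3%) were higher in NP (Naca, Btf3, Eif3h, Eif4b and Fau), against 9.47% of all genes, and 0 were higher in P. Larp1, which binds the TOP motif, averaged 11.6 ± 4.95 FPKM in NP and 0.519 ± 0.815 FPKM in P (SD, n = 4), a log2 fold change of −3.10 (SE 0.82, limma adjusted p = 0.376), and its libraries did not overlap. Cnbp, a zinc-finger protein that also binds TOP mRNAs, lay on the opposite side, with 105 ± 42.3 FPKM in NP and 234 ± 46.4 FPKM in P (SD, n = 4) and 1.23 (SE 0.54, limma adjusted p = 0.481).

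Factors that assemble the subunits were listed for both. The 25 tested genes of large subunit assembly had a median of −0.20 and the 24 of small subunit assembly −0.82, which turned to 0.51 and 0.16 after scaling to one median. At an unadjusted p below 0.05, 3 (12%) and 0 were higher in NP, against 9.47% of all genes, and 0 and 1 (4.17%) higher in P, against 0.476%. The last was Pno1, needed for the final steps of the small subunit, at 55.0 ± 68.7 FPKM in NP and 175 ± 45.6 FPKM in P (SD, n = 4), a log2 fold change of 2.39 (SE 0.76, limma adjusted p = 0.405). Rpf1, of early large subunit assembly, had −3.0 (SE 1.08, limma adjusted p = 0.416).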

How the data were processed

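Polysomal (P) and non-polysomal (NP) RNA of NEBD-stage mouse oocytes was sequenced in 4 libraries per dataset, grouped by title, from profiles that were independent per the study. Reads had been trimmed (Trim Galore 0.4.1), checked (FastQC 0.11.5) and aligned (HISAT2 2.0.5, GRCm38) by the authors, who quantified genes in Seqmonk. The deposited FPKM values were scaled by the authors for gene length and library size. Deposited tables of the authors' own means, ratios and DESeq2 results were not used.

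Genes whose P or NP mean exceeded 0.1 FPKM were tested 2-sided on log2(FPKM + 1), a scale that understates changes of low genes, with limma 3.58.1 in R 4.3.3 (eBayes with a trend), Benjamini-Hochberg adjusted over all genes, threshold 0.1. The fit was tested on simulated data. FPKM steps were turned into reads (tolerance 0.01), and copies were searched with blastn 2.17.0 in GRCm38.p6, with Python 3.11.15 and pandas 2.3.3. Named members were the 5 most abundant of each subunit, the 5 highest and 5 lowest fold changes above 10 FPKM, members without overlap, paralogues, stalk proteins, Rpsa, Rps6 and Rps27a, members at 0 in 4 or more libraries and genes outside the symbol rule, except those not reported here. Other named genes were chosen after their values were seen. Members, lists and tests were chosen with earlier results of these data known. Alternatives were other pseudocounts, filters, scalings and variance priors, a replicate block and leaving out libraries.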

Additional observations from a re-analysis of the deposited data

Results flagged for a closer look

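In 78 groups of 4 values, single libraries far from the rest of their dataset were looked for with Dixon's test at the 95% level, and 15 were marked. Its rate of about 1 in 20 groups by chance holds for normally distributed values. The FPKM values were taken without a log, so 15 of 78 cannot be set against that rate. For Rpl9 and Rpl21 in P only 1 library was above 0, which marks a group whatever that value is. In NP, NP4 was far above the other 3 libraries for Rpl36 (14520 FPKM), Rpl4 (596 FPKM), Rpl9 (2.14 FPKM), Rplp1 (2018 FPKM) and Rps28 (76.0 FPKM). NP1 was far above them for Rpsa (224 FPKM) and for Rpl7l1 (77.8 FPKM). NP3 was far below them for Rplp2 (8.42 FPKM) and for the percentile of the median member, 84.6.

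In P, P4 was far above the other 3 libraries for Rps3 (393 FPKM) and Rps28 (210 FPKM). P1 was far above them for Rpl7a (35.1 FPKM), Rpl21 (1.63 FPKM) and Rpl22l1 (21.3 FPKM), and P2 for Rpl9 (0.506 FPKM). Rps28 was thus marked in the same-numbered library of both datasets. No cause was tested for any of these values.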

How the results depend on the processing

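No member was called under any alternative except Rpl12 with eBayes without a trend (1 member, log2 fold change −3.05, limma adjusted p = 0.0449). That setting called 20 of all 14292 genes. Scaling each library to one median FPKM changed most values: medians were 0.35 for the members, 0.24 for the large and 0.71 for the small subunit and 0.14 relative to all genes. Counts at an unadjusted p below 0.05 became 1 towards NP and 6 towards P (2.73% and 7.0% of all genes), and those without overlap 1 and 4 (2.09% and 5.04%). Those over 2-fold became 6 and 34, for which the share of all genes was not computed. Rpl27 (0.41), Rpl4 (0.15), Rplp0 (0.11), Rplp2 (0.74), Rps14 (0.11), Rps27l (0.064) and Rps6 (0.77) reversed. Quantile normalization reversed the small subunit median (0.013), Rplp2 (0.060) and Rps6 (0.11). Averaging on the log2 scale left 5 members over 2-fold towards P, where percentiles 94 and 96 of all genes were 0.83 and 1.01. With no filter, and without a trend, 1 member was towards P at an unadjusted p below 0.05 (0.494% and 0.707% of all genes). Genes above 1 FPKM as the base gave percentiles of 77.1 (NP) and 73.9 (P).

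Leaving out each library in turn gave medians of −1.03 to −0.49 (members), −1.20 to −0.55 (large), −1.05 to −0.34 (small), −0.68 to −0.10 (relative to all genes) and −0.54 to 0.17 (large minus small, the highest without P4). Unadjusted counts were 8 to 19 towards NP, against 7.51 to 10.9% of all genes, and 1 to 3 towards P, against 0.255 to 1.14%. Counts without overlap were 6 to 15 (15 without NP3) and 1 to 3, where smaller groups separate more easily. Of all genes 7.90 to 11.4% and 0.495 to 1.33% did not overlap. The named members that reversed were Rpl21 (−0.17 to 0.29, lowest without P1), Rpl9 (−0.44 to 0.11, highest without NP4), Rps27a (−0.17 to 0.72), Rps28 (−0.17 to 2.51) and Rps3 (−0.016 to 1.89), each lowest without P4, and Rps4x (−0.29 to 0.45, lowest without P1). The cause of the reversals was not tested.

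The replicate number as a block gave 19 members towards NP and 2 towards P at an unadjusted p below 0.05, against 11.3% and 0.812% of all genes. The median of the members was −0.76, 0 members were called, and no call of a member changed. Same-numbered libraries deviated together at correlations of 0.139, 0.0518, 0.251 and 0.155, other numbers at −0.135 to 0.136, and NP2 correlated best with P1.

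Added after seeing the data, voom on recovered reads gave 7 members towards NP (11.8% of all genes), a median of −0.08 relative to all genes (−0.11 with pseudocount 0.1), a large minus small difference of −0.05 and Rpl21 at −0.33, members under 50% matched elsewhere gave 0.43 for that difference, and without Rps27 and Rpl36 the members' share was 1.76% in NP and 1.09% in P. Depth limits 26 members, which had fewer than 10 recovered reads in at least 1 library.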
